A study of Mus musculus with 36 samples.

Results

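The regions described here lost accessibility at days 2 and 3 of direct cardiac reprogramming and stood near the fibroblast level again at days 14 and 21. There are 481 of them among 184025 regions kept by a filter on low counts, 0.261%, out of 1393120 regions in the deposited count table. They were chosen on log2(CPM + 0.5), where CPM is the count relative to the library's total in the kept regions, per 1 M counts, averaged over 3 libraries per group. A region belongs to the set when the mean of days 2 and 3 lay at least 1 below fibroblasts on this log2 scale, the mean of days 14 and 21 lay within 0.5 of fibroblasts, and the later mean exceeded the earlier one by at least 1. The values of fibroblasts and of days 2, 3, 14 and 21 therefore chose the members and are given as a description, while the 3 libraries of day 7 took no part in the choice.

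Assay for transposase-accessible chromatin with sequencing (ATAC-seq) was applied to cells from neonatal hearts (strain Cd-1, carrying the reporter alpha-MHC-GFP), in which a promoter of cardiac myosin drives green fluorescent protein. Thy1-positive, GFP-negative explant cells, largely fibroblasts per the labels, were infected with retroviruses for Gata4, Mef2c and Tbx5 (GMT), cultured with sb431542 and xav939, which inhibit TGF-beta and Wnt signalling, and sorted for GFP at days 2, 3, 7, 14 and 21. The controls are cells of the same origin infected with dsRed, given neither inhibitor and sorted for dsRed at day 7. Each of these 6 groups has 3 libraries, labelled as biological replicates, and a difference from the controls joins the factors, the inhibitors, the sort and, except at day 7, the time in culture.

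In ATAC-seq a transposase cuts exposed DNA, and the read count of a region rises with how often it is free of nucleosomes across the cells. Fibroblast regulatory elements usually close when a cell changes identity, and Gata4, Mef2c and Tbx5 are heart transcription factors that bind and open cardiac elements. A loss that is later undone is thus a separate course from lasting closure. In such bulk samples, fewer cells with an open region and less opening per cell cannot be told apart. Of the 19390 kept regions that met the early threshold, the members are 2.48%. A further 12029 of these were still at least 1 below fibroblasts at days 14 and 21. The opposite course, a rise of at least 1 at days 2 and 3 and a return to within 0.5 of fibroblasts with a fall of at least 1, was met by 766 regions.

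The libraries held 2.29 to 23.2 M counts in all and 1.46 to 14.1 M in the kept regions, so that 1 read was worth 0.0711 to 0.683 CPM. The libraries of replicate number 1 at days 2 and 3 stand apart from all others and are among the shallowest, with 1.48 and 1.79 M kept counts. Against the other libraries of their day, their counts differed with a chi-square per degree of freedom of 3.11 to 3.91, where other pairs of replicates lay between 1.32 and 2.86. Fibroblast replicates 1 and 2 were the closest pair, at 1.32, where sampling noise alone gives values about 1. Markers of the sorted cells were not checked, since no gene annotation of the build mm9 was used here, and regions are given by their deposited mm9 coordinates. P-values measure the spread among these libraries. The labels name sequencing cores without assigning libraries to them, so no term for the core could be fitted. Since days 2 and 3 enter the rule, many medians, counts and calls below are followed by values without the replicate 1 libraries of these days. Among those given only with them are the orders of day 7 against single libraries, most counts at an unadjusted p and the share of neighbouring regions below fibroblasts. Single regions and runs are given library by library.

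All 481 members together summed to 1000.2 ± 524 CPM at day 2, 1176 ± 635 at day 3, 1783 ± 67.5 at day 7, 2407 ± 191 at day 14 and 2395 ± 154 at day 21, against 2603 ± 72.5 CPM in fibroblasts (SD, n = 3 each). The large spread at days 2 and 3 came with a single library each. Replicates 1, 2 and 3 had 424, 1447 and 1130 CPM at day 2 and 443, 1519 and 1566 CPM at day 3. By contrast, the sums at day 7 were 1802, 1839 and 1708 CPM, above every library of days 2 and 3 and below every fibroblast library, which had 2531, 2676 and 2601 CPM.

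**Figure D1:**
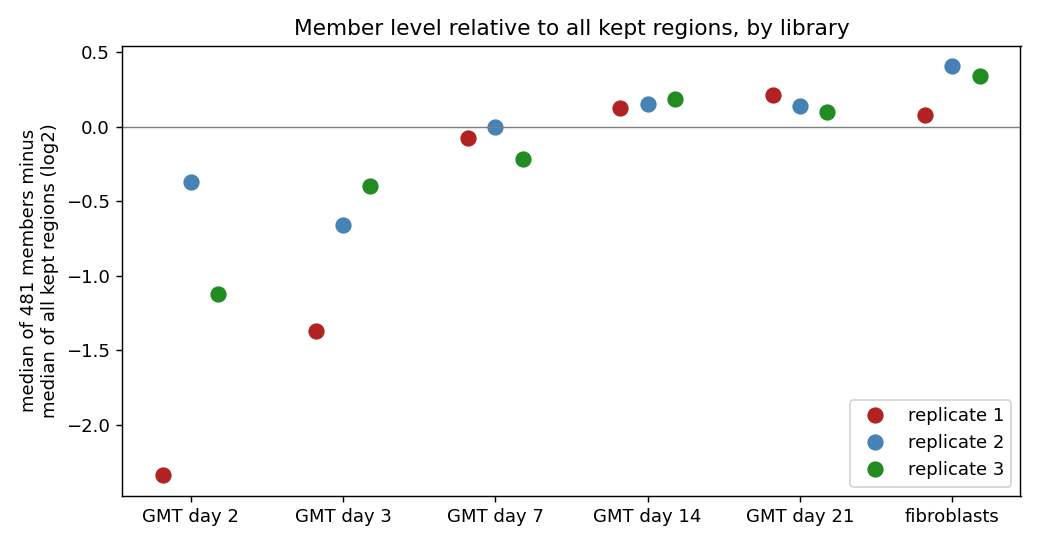
Each point is the median log2(CPM + 0.5) of the 481 members minus that of all 184025 kept regions in 1 library, by group on the horizontal axis and coloured by replicate number. Replicate 1 lies at -2.34 at day 2 and -1.37 at day 3, all other libraries of these days lie between -1.12 and -0.37, and the day 7 libraries lie between -0.22 and 0.

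The fall at days 2 and 3 was deepest in the replicate 1 libraries. There the median member lay 2.12 (day 2) and 1.99 (day 3) below the fibroblast mean on the log2 scale, against 0.70 and 1.29 below for day 2 replicates 2 and 3 and 0.83 and 0.73 below for day 3 replicates 2 and 3. Over all kept regions these medians lay between -0.05 and 0.07 in the 6 libraries. No read at all was found for 56.8% of members in day 2 replicate 1 and for 46.2% in day 3 replicate 1, whereas 9.69% and 6.33% of all kept regions were at 0 there. A count of 0 in these libraries allows up to 2.03 and 1.68 CPM (3 counts), a limit that covers counting error only. Both replicate 1 libraries lay below all 3 fibroblast libraries at 433 members, where 23.1% of all kept regions have this order. The other 4 libraries of days 2 and 3 did so at 222 members, where the share of all kept regions is 15.9%. These counts come from values that chose the members.

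Without both libraries the early loss was smaller. The median difference of days 2 and 3 from fibroblasts was -0.92 without them and -1.26 with them, and that of days 14 and 21 from days 2 and 3 was 0.81 without and 1.13 with them. Days 2 and 3 were below fibroblasts at 480 of 481 members (53.0% of all kept regions) and below days 14 and 21 at 479 (52.1% of all kept regions), counts that the rule largely fixed, since the remaining libraries also chose the members. The early threshold of 1 was still met by 197 members, the late one by 145, and the whole rule by 106. In all, 254 regions met the rule without these libraries, 106 of them members. The part that the depth of the replicate 1 libraries has in the choice was not tested.

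Every member has this course by the rule, and its values by level are a description. Split into 3 classes by fibroblast level, the 160 lowest members had a median early difference of -1.15 and the 160 highest one of -1.33. Day 2 replicate 1 had no read for 83.1% of the lowest class and for 20.6% of the highest. Leaving out both replicate 1 libraries gave medians of -0.90 in the lowest class and -0.89 in the highest.

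The 8 members with the highest mean level show how unevenly the loss was spread over libraries. The region chr11:51668245-51672778 had 15.6, 52.2 and 41.7 CPM at day 2, 14.0, 51.3 and 58.1 at day 3, 60.7, 66.9 and 75.1 at day 7, 95.6, 91.0 and 49.1 at day 14 and 99.8, 62.1 and 85.1 at day 21, against 66.9, 70.9 and 87.5 CPM in fibroblasts. Its lowest values are those of replicate 1 at days 2 and 3, and the other libraries of these days also lie below all 3 fibroblast libraries. At chr17:37182305-37184119 the values were 6.09, 54.7 and 53.5 CPM at day 2, 7.27, 60.4 and 63.7 at day 3, 72.5, 68.2 and 56.7 at day 7, 57.9, 60.8 and 51.4 at day 14 and 55.7, 70.7 and 71.7 at day 21, against 82.8, 87.1 and 68.3 CPM in fibroblasts. The other libraries of days 2 and 3 lie below the fibroblasts too, but in the range of days 14 and 21, and both replicate 1 libraries are far lower. The region chr16:18392081-18393871 had 7.44, 35.7 and 29.3 CPM at day 2, 2.79, 39.9 and 38.6 at day 3, 50.9, 43.7 and 45.5 at day 7, 43.6, 49.0 and 34.3 at day 14 and 49.0, 49.3 and 45.9 at day 21, against 38.6, 49.9 and 36.2 CPM in fibroblasts. Day 3 replicates 2 and 3 fall into the fibroblast range, day 2 replicates 2 and 3 lie under it, and both replicate 1 libraries are far lower.

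On chromosome 17 the region chr17:32525285-32527145 had 3.38, 34.1 and 31.0 CPM at day 2, 1.68, 35.8 and 34.7 at day 3, 42.3, 41.2 and 46.4 at day 7, 43.3, 36.1 and 31.5 at day 14 and 49.2, 32.2 and 47.3 at day 21, against 26.5, 29.7 and 36.2 CPM in fibroblasts. Day 2 and day 3 replicates 2 and 3 fall inside the fibroblast range there, and the region did not meet the rule without both replicate 1 libraries. At chr11:108781018-108783747 the values were 7.44, 29.7 and 27.5 CPM at day 2, 6.15, 33.9 and 31.1 at day 3, 40.7, 41.3 and 46.9 at day 7, 55.7, 56.3 and 33.8 at day 14 and 57.3, 58.2 and 59.3 at day 21, against 40.0, 46.4 and 40.3 CPM in fibroblasts. In this case all 6 libraries of days 2 and 3 lay below all 3 fibroblast libraries. At all 8 of these members both replicate 1 libraries were below the other 4 of days 2 and 3, an order found at 223 of 481 members and at 13.6% of all kept regions.

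**Figure D2:**
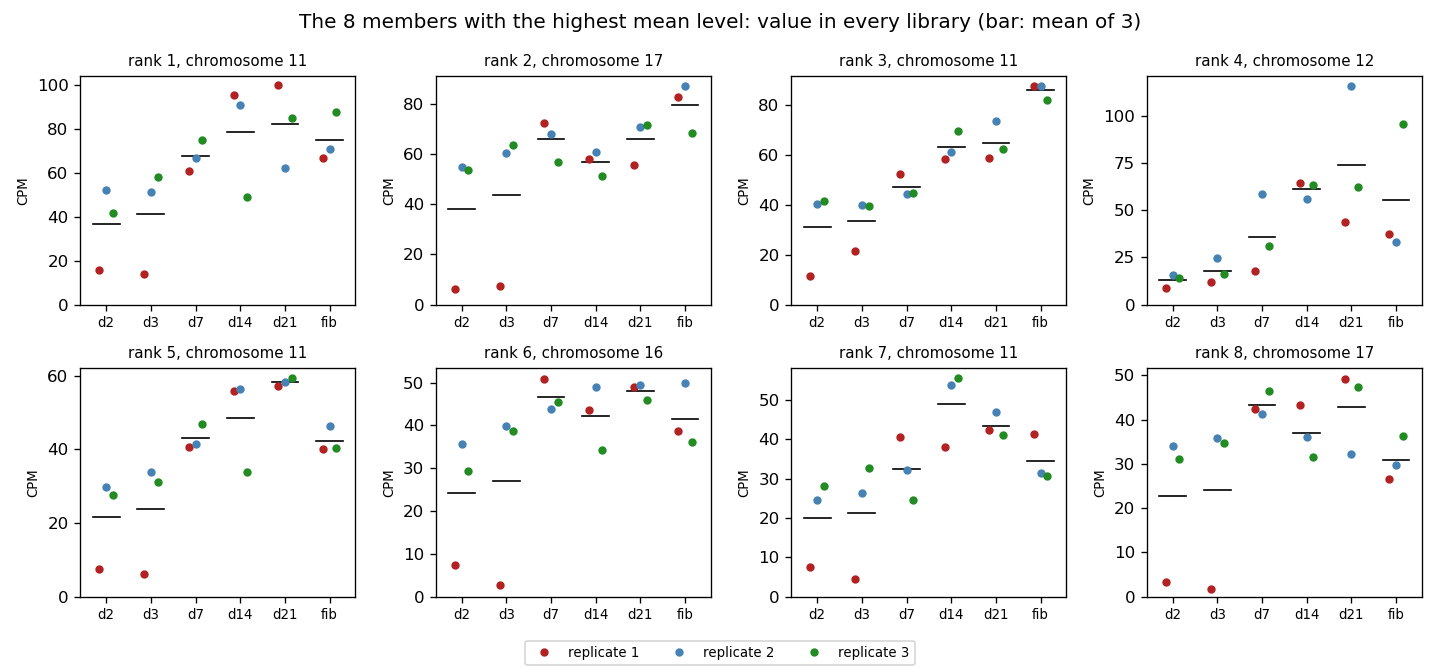
Each panel is 1 of the 8 members with the highest mean level, ranked from the left of the upper row, with CPM on the vertical axis from 0, groups on the horizontal axis (fib, fibroblasts), a point per library coloured by replicate number and a bar at the mean of 3. Replicate 1 is the lowest library at days 2 and 3 in all 8 panels, and at rank 4, on chromosome 12, the other libraries of these days are low as well.

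Among these 8, the member ranked 4 was low in every library of days 2 and 3. The region chr12:105491235-105495600 had 8.80, 15.7 and 13.9 CPM at day 2, 11.7, 24.8 and 15.99 at day 3, 17.8, 58.6 and 31.0 at day 7, 64.3, 55.7 and 63.4 at day 14 and 43.5, 116 and 62.3 at day 21, against 37.6, 33.2 and 95.7 CPM in fibroblasts. All 6 libraries of days 2 and 3 lay below all 3 of fibroblasts and all 6 of days 14 and 21, and the day 7 libraries spread over both ranges. It had the largest late rise of all members, 2.12 on the log2 scale, which remained 1.88 without both replicate 1 libraries. The rule and this late rise both used days 2 and 3, which by itself favours a higher day 7 against them. Day 7 lay above days 2 and 3 there by a fitted log2 fold change of 1.39 (SE 0.33, adjusted p 0.049 in edgeR). That call was lost under 16 of 26 alternatives, among them leaving out both replicate 1 libraries (adjusted p 0.382) or day 7 replicate 2 (0.466), and the lowest adjusted p was 0.00834.

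This region lies in the densest run of members. Between 105487141 and 105498355 on chromosome 12, 5 of 9 kept regions are members, and the other 4 were also lower at days 2 and 3 than in fibroblasts and higher again at days 14 and 21. Summed over all 9, the run had 14.2, 25.8 and 22.8 CPM at day 2, 19.6, 36.9 and 23.4 at day 3, 25.6, 76.8 and 45.2 at day 7, 86.1, 77.8 and 82.9 at day 14 and 58.0, 162 and 85.2 at day 21, against 57.2, 52.1 and 131 CPM in fibroblasts. The 6 libraries of days 2 and 3 are again below all others except day 7 replicate 1, and fibroblast replicate 3 stands above the other fibroblast libraries.

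A run of 3 members among 5 kept regions lies near the start of chromosome 11, from 3025171 to 3029379. It holds chr11:3025171-3026073, ranked 3 by level, with 11.5, 40.1 and 41.4 CPM at day 2, 21.2, 39.7 and 39.4 at day 3, 52.2, 44.3 and 44.6 at day 7, 58.4, 60.8 and 69.4 at day 14 and 58.8, 73.3 and 62.1 at day 21, against 87.6, 87.5 and 82.0 CPM in fibroblasts. It also holds chr11:3027088-3027735, ranked 7, with 7.44, 24.6 and 28.2 CPM at day 2, 4.47, 26.5 and 32.8 at day 3, 40.6, 32.3 and 24.7 at day 7, 38.0, 53.8 and 55.6 at day 14 and 42.3, 47.0 and 41.0 at day 21, against 41.4, 31.5 and 30.7 CPM in fibroblasts. At the first of these all 6 libraries of days 2 and 3 lay below every fibroblast library, and at the second replicate 3 of day 3 did not. All libraries of days 7, 14 and 21 were also below every fibroblast library at the first. Summed over its 5 kept regions, the run had 42.0, 92.2 and 112 CPM at day 2, 45.8, 102 and 107 at day 3, 135, 108 and 95.2 at day 7, 139, 168 and 185 at day 14 and 154, 170.5 and 145 at day 21, against 182, 173 and 156 CPM in fibroblasts.

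The next run, from 111508071 to 111519312 on chromosome 12, has 3 members among 4 kept regions, with sums of 1.35, 11.5 and 7.13 CPM at day 2, 2.24, 12.9 and 14.7 at day 3, 11.4, 12.9 and 14.6 at day 7, 14.4, 15.6 and 22.7 at day 14 and 18.8, 19.7 and 18.8 at day 21, against 19.9, 17.9 and 18.4 CPM in fibroblasts. Both replicate 1 libraries are lowest and day 2 and day 3 replicates 2 and 3 stay under the fibroblast values. Another run of 3 members among 12 kept regions, on chromosome 1 from 135110391 to 135150914, did not have this course as a whole. Its sums were 90.7, 84.0 and 67.8 CPM at day 2, 60.9, 98.4 and 105 at day 3, 122, 126 and 129.7 at day 7, 130.5, 167 and 100.0 at day 14 and 167, 123 and 184 at day 21, against 78.3, 83.6 and 69.7 CPM in fibroblasts. Days 2 and 3 overlap the fibroblasts there, later libraries are above them, and 1 of the other regions of the run was lower at days 2 and 3 than in fibroblasts. Most members stood alone: 433 had no other member within 50000 bases, 17 runs held 2, 3 runs held 3 and 1 held 5.

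Among members with at least 200 counts, the next largest late rises after chr12:105491235-105495600 were spread over 5 chromosomes. The region chr15:99773834-99776084 had 0, 2.34 and 1.07 CPM at day 2, 0, 0.559 and 2.35 at day 3, 2.14, 2.02 and 1.53 at day 7, 2.23, 3.77 and 6.02 at day 14 and 7.09, 4.56 and 3.75 at day 21, against 3.12, 3.94 and 2.05 CPM in fibroblasts. Days 14 and 21 spread from within the fibroblast range to above it at this region, and day 2 replicate 2 and day 3 replicate 3 fell within it. At chr1:72907070-72907859 the values were 0.677, 1.51 and 0.357 CPM at day 2, 0, 1.12 and 0.995 at day 3, 2.46, 2.76 and 1.23 at day 7, 3.57, 1.08 and 3.70 at day 14 and 5.36, 5.42 and 3.14 at day 21, against 3.98, 2.19 and 4.10 CPM in fibroblasts. All 6 libraries of days 2 and 3 were below the fibroblasts, and day 14 replicate 2 was too.

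At chr11:98811808-98813739, values were 2.03, 7.56 and 8.92 CPM at day 2, 0, 12.5 and 9.52 at day 3, 17.9, 16.5 and 9.35 at day 7, 13.8, 17.8 and 11.1 at day 14 and 23.4, 9.98 and 16.6 at day 21, against 16.1, 10.1 and 15.7 CPM in fibroblasts. Day 3 replicate 2 was the single library of days 2 and 3 inside the fibroblast range. On chromosome 12, chr12:11155865-11158089 had 0, 17.7 and 19.3 CPM at day 2, 7.83, 23.1 and 21.5 at day 3, 22.7, 27.7 and 21.9 at day 7, 23.8, 26.7 and 25.9 at day 14 and 32.7, 35.9 and 37.4 at day 21, against 26.2, 36.3 and 32.1 CPM in fibroblasts. Day 2 replicate 1 had no read there, which allows up to 2.03 CPM. On chromosome 10, chr10:45054342-45056342 had 0, 5.64 and 6.42 CPM at day 2, 2.79, 7.08 and 11.02 at day 3, 11.2, 9.37 and 9.04 at day 7, 11.4, 12.4 and 10.6 at day 14 and 14.7, 12.5 and 16.8 at day 21, against 15.2, 16.2 and 14.3 CPM in fibroblasts. Every library of days 2 and 3 was below every fibroblast library at both regions.

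At the members, day 7, whose libraries the rule did not use, lay between the early and the late level. The median member was 0.67 above the mean of days 2 and 3 at day 7 and 0.61 below fibroblasts, and days 14 and 21 were 0.49 above day 7. Over all kept regions these medians were -0.14, -0.18 and 0.13, so day 7 stood lower as a whole on this scale. Relative to all kept regions, the members were thus 0.81 above days 2 and 3 and 0.43 below fibroblasts at day 7, and a further 0.37 higher at days 14 and 21. Day 7 was above days 2 and 3 at 466 of 481 members, below fibroblasts at 457, and between the early and the late mean at 434. The median member had covered 57.8% of its rise by day 7 (quartiles 39.1 and 75.8%), and 39.4% (10.9 and 65.2%) without both replicate 1 libraries of days 2 and 3. The other side of each of these differences, fibroblasts or days 2, 3, 14 and 21, was used by the rule, which by itself favours these directions. Without both replicate 1 libraries, day 7 was above days 2 and 3 at 392 members, by a median of 0.31, against -0.12 over all kept regions, and between the early and the late mean at 361. In regions chosen without the libraries read, described below, day 7 stood at about the level of days 2 and 3. Over all kept regions it stood lower than these days, so relative to them the chosen regions lay above the early level.

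**Figure D3:**
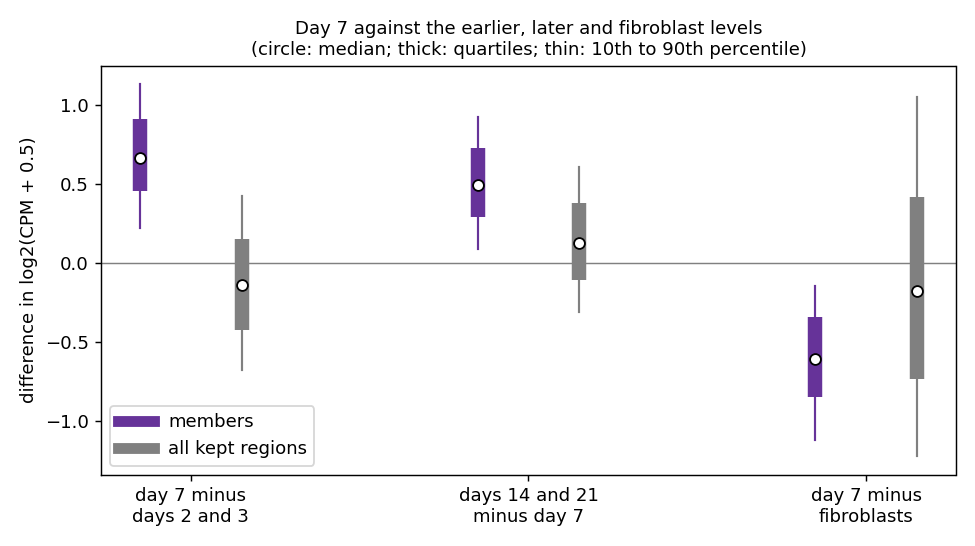
Differences in log2(CPM + 0.5) between day 7 and the other levels, with the median (circle), quartiles (thick bar) and 10th to 90th percentile (thin line) for the 481 members and for all 184025 kept regions. The member medians are 0.67, 0.49 and -0.61, and those of all kept regions -0.14, 0.13 and -0.18.

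Library by library, 3 of 3 day 7 values lay below 3 of 3 fibroblast values at 179 members, 37.2%, where 23.9% of all kept regions have this order. All 3 lay above all 6 libraries of days 2 and 3 at 49 members, 10.2%, against 1.73% of all kept regions. They lay below all 6 libraries of days 14 and 21 at 65 members, 13.5%, against 2.95% of all kept regions. The libraries on the other side of each order were used by the rule, which by itself favours these orders at the members. These shares are a description.

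Tests with edgeR's quasi-likelihood method used 144810 regions that passed its filter, among them 402 members. The other 79 members were not tested. Day 7 was lower than fibroblasts at 21 of the 402, 5.22%, and higher at 0, with adjusted p under 0.05, where 12% of all regions tested were lower and 15.5% higher. The members called lower are thus a smaller share than among all regions. At an unadjusted p under 0.05, 59 members were lower, 14.7% against 17.6% of all regions tested, and 0 higher, against 20.6%. DESeq2 called 15 members lower, 3.73% against 10.7% of all regions, and 0 higher. Without both replicate 1 libraries of days 2 and 3, which left 471 members tested, 18 were lower and 1 higher, 3.82 and 0.212% against 9.98 and 16.3% of all regions. Without 1 library the 21 became 4 (fibroblast replicate 2) or 10 (fibroblast replicate 1, day 7 replicate 1 or day 21 replicate 1). The count was 11 without day 7 replicate 3 or day 21 replicate 2. Without day 2 replicate 3 or day 14 replicate 2 it was 12. Shares over all regions in these reduced fits are not given, so a loss particular to the members cannot be told from a general one.

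The largest of these falls were at regions of few counts. The region chr10:25604457-25605670 had 0, 0.825 and 0.713 CPM at day 2, 0, 0.559 and 0.498 at day 3, 0.427, 0.184 and 0.307 at day 7, 1.34, 2.42 and 1.39 at day 14 and 0.957, 2.28 and 0.919 at day 21, against 1.56, 4.37 and 0.683 CPM in fibroblasts, with a fitted log2 fold change of -2.45 for day 7 against fibroblasts (SE 0.78, adjusted p 0.0131 in edgeR). Fibroblast replicate 2 alone stands high, and without it the adjusted p was 0.25. At chr1:190346649-190348116 they were 0, 0.687 and 0.713 CPM at day 2, 0, 0.932 and 0.640 at day 3, 0.320, 0.551 and 0.766 at day 7, 0.780, 1.35 and 4.63 at day 14 and 2.30, 1.43 and 0.613 at day 21, against 3.46, 3.06 and 0.683 CPM in fibroblasts (-2.07, SE 0.69, adjusted p 0.0192). Its fibroblast replicate 3 overlaps day 7. Leaving out fibroblast replicate 1 gave an adjusted p of 0.225, leaving out fibroblast replicate 2 gave 0.0608, and 0.0996 resulted when day 7 replicate 1 was dropped. The region chr16:77645283-77645685 had 2.03, 0.687 and 0.357 CPM at day 2, 0, 0.932 and 0.782 at day 3, 0.107, 0.551 and 0.920 at day 7, 1.34, 2.15 and 3.70 at day 14 and 2.11, 2.57 and 1.99 at day 21, against 2.60, 2.62 and 1.37 CPM in fibroblasts (-1.97, SE 0.65, adjusted p 0.0174), and its day 7 libraries were below every fibroblast library. Its adjusted p was 0.136 without fibroblast replicate 1, 0.0743 without replicate 2 and 0.145 without day 7 replicate 1.

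Of the other 18 regions called lower at day 7, 3 with the most counts were singled out after their values were seen. They lie on 2 chromosomes and followed nearly the same course over all libraries, of which the choice fixed a large part. The region chr12:55814858-55815912 had 20.3, 6.60 and 13.2 CPM at day 2, 12.3, 16.97 and 12.1 at day 3, 7.69, 9.92 and 22.7 at day 7, 36.7, 33.7 and 16.2 at day 14 and 28.7, 45.9 and 31.1 at day 21, against 35.9, 40.2 and 35.5 CPM in fibroblasts. Close by, chr12:55834855-55836271 had 12.2, 5.64 and 11.4 CPM at day 2, 10.6, 8.02 and 10.7 at day 3, 7.05, 6.43 and 19.8 at day 7, 28.2, 26.4 and 12.0 at day 14 and 24.3, 37.1 and 23.8 at day 21, against 29.6, 35.4 and 23.2 CPM in fibroblasts. On chromosome 11, chr11:87239770-87241185 had 18.9, 8.52 and 12.5 CPM at day 2, 14.5, 8.39 and 16.8 at day 3, 8.54, 11.2 and 20.2 at day 7, 34.2, 30.2 and 12.5 at day 14 and 27.2, 36.5 and 32.0 at day 21, against 32.0, 39.8 and 32.1 CPM in fibroblasts. At all 3, day 7 replicates 1 and 2 were as low as days 2 and 3, day 7 replicate 3 was higher, and day 14 replicate 3 was the lowest of the late libraries. Their fitted log2 fold changes for day 7 against fibroblasts were -1.21, -1.16 and -1.12 (SE 0.34, 0.34 and 0.32), with adjusted p of 0.00538, 0.00837 and 0.00639 in edgeR. Across the 18 libraries, the log2 values of these regions correlated at 0.96, 0.93 and 0.96 in pairs, a description over points that share libraries and depth. The rule gave every member a fall and a return, and these 3 were also called lower at day 7, which by itself raises such correlations. Other members were not correlated for comparison.

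Against days 2 and 3, day 7 was higher at 7 of 402 members, 1.74%, and lower at 0, where 0.25% of all regions tested were higher and 0.087% lower. At an unadjusted p under 0.05 these were 120 higher, 29.9%, and 0 lower, against 7.29 and 4.86% of all regions tested. Days 2 and 3 were chosen for being low here, and the rule thereby favours this direction. DESeq2 called 6 members higher, 1.49% against 0.324% of all regions. Without both replicate 1 libraries of days 2 and 3 the count was 7 of 471 tested, 1.49% against 0.67% of all regions. Dropping day 7 replicate 3 left 0 calls and dropping day 7 replicate 2 left 1. Dropping either day 7 replicate 1 or day 2 replicate 3 left 3, and dropping either day 3 replicate 3 or day 21 replicate 3 left 4. These counts too are given without the shares over all regions and are not a result about the members.

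The largest rise was at chr13:24277258-24279832, with 2.71, 1.51 and 1.43 CPM at day 2, 1.12, 1.12 and 3.27 at day 3, 4.06, 6.80 and 4.90 at day 7, 7.35, 4.58 and 3.70 at day 14 and 6.32, 3.99 and 4.98 at day 21, against 5.37, 2.19 and 5.47 CPM in fibroblasts. The fitted log2 fold change of day 7 against days 2 and 3 was 1.57 (SE 0.34, adjusted p 0.0157 in edgeR), and all 3 day 7 values were above all 6 of days 2 and 3. The next was at chr16:4874385-4875189, with 0.677, 1.37 and 1.78 CPM at day 2, 1.68, 2.80 and 2.91 at day 3, 5.23, 3.67 and 4.75 at day 7, 8.25, 4.58 and 5.56 at day 14 and 6.32, 6.27 and 3.45 at day 21, against 4.33, 3.06 and 5.47 CPM in fibroblasts (1.42, SE 0.33, adjusted p 0.0293). Here too the day 7 libraries were above every library of days 2 and 3. At the first, adjusted p was 0.171, 0.0712 and 0.0631 when day 7 replicate 2, day 7 replicate 3 or day 2 replicate 2 was dropped. At the second it was 0.13, 0.0655, 0.134 and 0.087 on dropping day 7 replicates 1, 2 and 3 or day 2 replicate 2, each in turn.

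When days 14 and 21 were set against day 7, 0 of 402 members passed the test in edgeR and in DESeq2, where 0% of all regions tested were higher and 0.0124% lower. At an unadjusted p under 0.05, 65 members were higher, 16.2%, and 0 lower, against 3.2 and 4.32% of all regions tested. The fitted log2 fold changes had a median of 0.46 over the 402 members and 0.0041 over all regions tested. Days 14 and 21 were used by the rule, which by itself favours a rise from day 7, so these differences are a description. In each of 3 reduced fits 1 member was called higher, namely those lacking both replicate 1 libraries of days 2 and 3, day 3 replicate 1 alone, or day 7 replicate 3. No reason for the lack of calls was tested.

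Within the early and the late pair of days, single regions did not pass the test either. The rule used the mean of each pair and not its difference, but the libraries of a pair differ in depth. Day 2 replicate 3 had no read for 20.8% of members, against 3.25% of all kept regions. A choice on a low mean can thus favour a direction within the pair, which was not tested. Day 3 against day 2 gave 0 calls among members and 0% among all regions in edgeR, and 0 members in DESeq2. Its unadjusted p was under 0.05 at 22 members, 20 of them higher at day 3, 5.47% against 3.62% of all regions tested. The median member was 0.19 higher at day 3 than at day 2, and 319 of 481 were higher. Over all kept regions that median was 0.02, and 51.7% were higher. Leaving both replicate 1 libraries out, the member median was 0.25 and 343 were higher, against -0.0018 and 49.8% over all kept regions. Without day 2 replicate 2 the 22 became 65, and without day 3 replicate 1 they became 56. Shares over all regions in these fits are not given, so this increase is not a result about the members. Day 21 against day 14 gave 0 calls, 6 members with an unadjusted p under 0.05 (1.49% against 3.28%) and a median difference of -0.09, against -0.03 over all kept regions.

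For the contrasts that chose the members, calls are a description. Days 2 and 3 were lower than fibroblasts at 171 of the 402 members tested (11.7% of all regions), and days 14 and 21 were higher than days 2 and 3 at 162 (2.5% of all regions) and lower at 0 (3.66%, and 6.17% in either direction). These calls without both replicate 1 libraries were 114 of 471 (9.06% of all regions) and 122 (2% of all regions). Days 14 and 21 differed from fibroblasts at 0 of 402, where 15.1% of all regions tested were higher and 12.7% lower, 27.8% in all. Without both libraries they were higher at 4 of 471, 0.849%, where 15.2% of all regions were higher and 10.8% lower. Most members tested thus did not pass these tests one by one.

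The same measure in libraries that the choice did not use gave a smaller course in the same direction. For this the rule was applied to 2 replicate numbers, and the libraries of the remaining number were read. Chosen from numbers 2 and 3, 380 regions had a median difference of days 2 and 3 from fibroblasts of -0.61 in the libraries of number 1, which include both that stand apart, against -0.14 over all kept regions, and one of 0.30 for days 14 and 21 against days 2 and 3, against -0.10. Chosen from numbers 1 and 3, 1995 regions had -0.30 and 0.20 in number 2, against -0.10 and 0.02. Chosen from numbers 1 and 2, 1761 regions had -0.19 and 0.24 in number 3, against 0.05 and 0.04. The held-out libraries by themselves met the whole rule at 11.3, 1.80 and 2.33% of the chosen regions, against 4.71, 0.653 and 0.991% of all kept regions, for numbers 1, 2 and 3. The held-out differences were thus well under the size of 1 that the rule asks for, and their direction was that of the rule for all 3 numbers. Day 7 minus days 2 and 3 had medians of -0.01, 0.01 and -0.05 in the held-out libraries of numbers 1, 2 and 3, against -0.18, -0.10 and -0.14 over all kept regions. As measured, day 7 was thus close to the early level in the held-out libraries. Relative to all kept regions, which were lower at day 7, it lay above the early level for all 3 numbers. With TMM library sizes, the late rises were 0.49, 0.15 and 0.18, against 0.15, -0.0019 and -0.0018 over all kept regions.

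**Figure D4:**
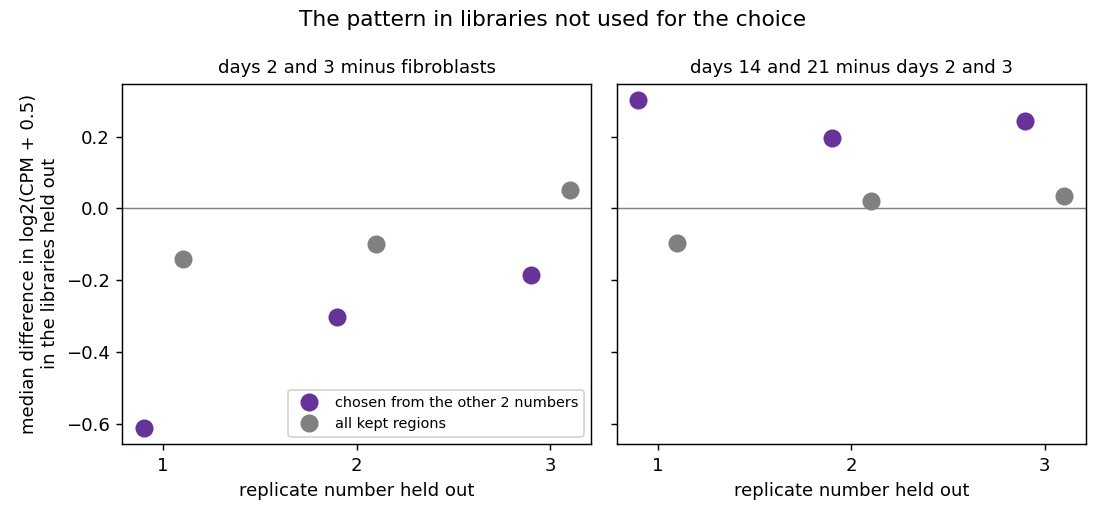
Median difference in log2(CPM + 0.5), in the libraries of 1 replicate number, of regions chosen by the rule from the other numbers (purple) and of all kept regions (grey). The chosen regions lie at -0.61, -0.30 and -0.19 for the early difference and at 0.30, 0.20 and 0.24 for the late one.

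The members were found on each chromosome of the table and in each class of summed count. Their median width was 1332 bases, against 1346 over all kept regions, with quartiles of 963 and 1762 against 996 and 1847. Their median summed count was 174 against 187, with an upper quartile of 296 against 430, and they made up 0.253% of the regions in the lowest of 5 count classes of near equal size, 0.378% in the middle class and 0.171% in the highest. By chromosome they made up between 0.203% (chromosome 14, 40 members) and 0.352% (chromosome 11, 83 members) of the kept regions. No test was made of these shares.

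Regions around the members that are not members themselves shifted the same way. Within 2000 bases of a member, centre to centre, 231 such regions had a median of -0.24 for days 2 and 3 against fibroblasts and of 0.26 for days 14 and 21 against days 2 and 3. These medians were -0.32 and 0.20 for 611 regions at 2000 to 5000 bases, -0.17 and 0.13 for 2938 at 5000 to 20000, and -0.12 and 0.06 for 13615 at 20000 to 100000. At 500000 bases and over, 116572 regions had -0.06 and -0.01. Without both replicate 1 libraries the nearest regions had -0.16 and 0.17, and the next classes -0.17 and 0.08, -0.10 and 0.07, and -0.07 and 0.03. Regions at 500000 bases and over then had -0.07 and 0.02, and all kept regions -0.06 and 0.02. Days 2 and 3 were below fibroblasts at 66.2% of the nearest regions and at 53.4% of all kept regions. Neighbours share libraries with the members, and these medians are a description.

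**Figure D5:**
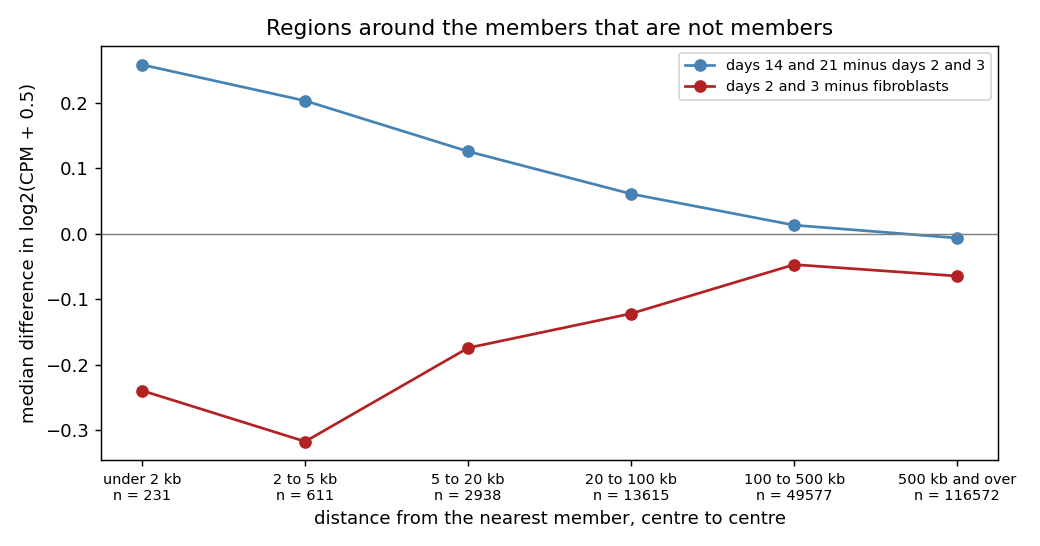
Median difference in log2(CPM + 0.5) of regions that are not members, by distance from the nearest member on the horizontal axis, with the number of regions under each point. Late rises shrink with distance, with medians of 0.26, 0.20, 0.13, 0.06, 0.01 and -0.01.

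Regions just inside and just outside the thresholds had nearly the same values. The 3 members nearest the early threshold were at -1.0019, -1.0029 and -1.0039 for days 2 and 3 against fibroblasts, and the 3 regions just outside were at -0.9995, -0.9990 and -0.9986. For the late rise the nearest members were at 1.0000, 1.0004 and 1.0010, and those outside at 0.9992, 0.9973 and 0.9970. The median late rise of the members was 1.13, with quartiles of 1.06 and 1.25 and a highest value of 2.12. Most members therefore lie close to the limit that chose them.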

How the data were processed

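ATAC-seq reads were aligned, filtered and counted by the authors with Bowtie2, Picard, MACS2 and edgeR on the build mm9, per the submitters' processing notes, whose versions the sources used here do not give. Their deposited table holds whole-number read counts per region for 18 libraries of 36 labelled samples, on chromosomes 1 and 10 to 17 (to 79.1 Mb of chromosome 17); its 1 incomplete line was left out, and the origin of start positions is not stated. The regions kept had at least 90 counts summed over the libraries, without the 5 highest, and levels are log2(CPM + 0.5) on the library sums of these regions. Tests used edgeR 4.0.16 in R 4.3.3, its quasi-likelihood fit over all 18 libraries with TMM scaling and filterByExpr, 12 residual degrees of freedom and Benjamini-Hochberg adjustment over 144810 regions, called at 0.05. The fit was also run on simulated counts with 1 common spread for all regions and no library standing apart. That run does not cover the uneven spread among the libraries here. DESeq2 1.42.0, other scalings, filters and pseudocounts, a replicate block and leaving out each library were alternatives. Named regions were the 8 members highest by mean level, the 6 largest late rises with at least 200 counts, the 3 largest called changes at day 7 in each comparison and the densest runs. The members and lists were chosen with earlier results of these data known. Sequences and gene names are not reported here.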

Additional observations from a re-analysis of the deposited data

How the results depend on the processing

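The number of regions meeting the rule depended on its settings: it was 78 with a pseudocount of 1, 21 with a pseudocount of 2 and 283 with at least 180 summed counts, against 481. Of these, 77, 20 and 220 were members. With TMM or RLE library sizes it was 469 and 475, with 368 and 403 members. Without both replicate 1 libraries of days 2 and 3, an alternative that was chosen after seeing the data where it concerns member levels, it was 254, and without 1 library it ranged between 269 (day 3 replicate 1) and 1237 (day 2 replicate 2). It was 316, 777, 884 and 1050 without day 2 replicate 1, day 2 replicate 3, day 3 replicate 2 and day 3 replicate 3. Held-out late rises were 0.4911 and 0.181 with TMM sizes for numbers 1 and 3. Members lower at day 7 than in fibroblasts numbered 4 at an adjusted p under 0.01, 2 on library totals, 53 on the sums of the kept regions and between 4 and 20 without 1 library. Members higher at day 7 than at days 2 and 3 numbered 1, 0 and 2 under the same settings and between 0 and 8 without 1 library. For days 14 and 21 against day 7 the count was 1 without both replicate 1 libraries and 0 to 1 without 1 library, and the other comparisons stayed at 0. Shares over all regions are not given beside these counts, which therefore show no dependence particular to the members. For day 7 against fibroblasts, library totals put the median log2 fold change of all regions at 0.30 and the sums of the kept regions put it at -0.24, against 0.0059 with TMM. A replicate block gave 20, 7, 0, 0 and 0 calls. Replicate numbers did not pair the libraries over the series as a whole. Correlations over 0.1 were 2 of 45 between libraries of the same number and 3 of 90 between different numbers. The highest, 0.28, was between the replicate 1 libraries of days 2 and 3, which stand apart. Replicate 2 of days 2 and 3 gave the other of the same number, 0.19. In the replicate 1 libraries of days 2 and 3 a count of 0 allows 2.03 and 1.68 CPM, which limits single regions there. The cause of these dependences was not tested.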
